A study of Rattus norvegicus with 24 samples.

Results

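The genes described are 9 interferon response genes, Mx1, Mx2, Ifitm3, Isg15, Irf7, Irf9, Ifit2, Ifit3 and Stat2, chosen by gene name out of 32883 genes in the files. They were followed in 23 rRNA-depleted RNA libraries of primary striatal neurons from neonatal rats, cultured to day 7. The cultures received SKF, an agonist of the dopamine D1 receptor (D1R), and a bromodomain inhibitor together, either agent with DMSO in place of the other, or DMSO alone. Bromodomain inhibitors displace BRD proteins from acetylated histones. In experiment 1 the groups were SKF/JQ1, DMSO/JQ1, SKF/DMSO and DMSO/DMSO for 60 min, where JQ1 is an inhibitor of the BET family. Experiment 2 had SKF/iBD2, DMSO/iBD2, SKF/DMSO and DMSO/DMSO for 60 min, where iBD2 is the inhibitor as the labels name it. In experiment 3 the groups were SKF/JQ1, DMSO/JQ1, SKF/DMSO and DMSO/DMSO for 24 h. These are called SKF plus inhibitor, inhibitor, SKF and DMSO from here on. Each group had 2 libraries except SKF plus iBD2, of which 1 was analysed here. Doses and rat strain are absent from the labels. The labels also do not state whether replicate libraries stem from separate cultures, and the p-values therefore cover the spread among the libraries at hand, part of which may be technical.

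Type I interferons act through a receptor of the chains IFNAR1 and IFNAR2, whose kinases JAK1 and TYK2 phosphorylate STAT factors. STAT2 and IRF9 are subunits of the complex ISGF3, which binds the interferon-stimulated response element (ISRE) of target genes. The GAS element is the DNA site of the interferon gamma route. Targets include the antiviral effectors of the Mx, Ifit and Ifitm families, the ubiquitin-like modifier Isg15 and Irf7, a factor that drives further interferon production. In brain, microglia are a main cell type expressing such genes.

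The libraries held 4.36 to 14.9 aligned gigabases, computed from coverage and FPKM (fragments per kilobase of transcript, scaled to library depth). Hexim1, a marker of BET inhibition, rose with JQ1 at 60 min (log2 fold change 1.22 ± 0.09) and at 24 h (1.47 ± 0.09). The SKF-responsive gene Fos rose with SKF at 60 min in experiment 1 (2.03 ± 0.17) and in experiment 2 (2.20 ± 0.17). The summed FPKM was 2956 to 3947 over 22 neuron genes, 291 to 933 over 12 astrocyte genes and 15.7 to 176 over 16 microglia genes, so the cultures held glial RNA beside that of neurons. The cultures of experiment 2 held less of the microglia and astrocyte markers than those of experiment 1, at 55.8% and 39.7% of the experiment 1 sums in the DMSO groups. In bulk RNA, fewer cells of a type and less RNA per cell cannot be told apart.

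Promoter sequences from RefSeq, build GRCr8, were matched for 6 of the 9 genes, and those of the 3 matched genes that were tested are shown. They run from 250 bases before to 50 after the start of the gene, in the direction of the gene. Capitals mark matches to the ISRE core, which is GAAA repeated after any 2 bases, and to the GAS motif TTCNNNGAA, both searched on both strands.
Ifitm3 promoter (chr1:205541709-205542008, minus strand): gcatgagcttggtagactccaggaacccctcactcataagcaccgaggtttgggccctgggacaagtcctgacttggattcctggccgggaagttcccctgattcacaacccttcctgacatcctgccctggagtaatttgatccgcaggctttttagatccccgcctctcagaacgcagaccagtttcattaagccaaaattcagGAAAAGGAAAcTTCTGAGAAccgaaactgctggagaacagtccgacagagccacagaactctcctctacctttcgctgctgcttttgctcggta
Irf9 promoter (chr15:33065586-33065885, plus strand): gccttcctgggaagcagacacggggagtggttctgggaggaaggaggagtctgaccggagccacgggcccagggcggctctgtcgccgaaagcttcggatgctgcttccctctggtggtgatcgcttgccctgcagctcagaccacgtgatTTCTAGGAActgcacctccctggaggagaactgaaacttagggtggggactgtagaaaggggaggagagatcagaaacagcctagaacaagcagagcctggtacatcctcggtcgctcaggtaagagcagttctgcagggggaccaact
Stat2 promoter (chr7:1286840-1287139, plus strand): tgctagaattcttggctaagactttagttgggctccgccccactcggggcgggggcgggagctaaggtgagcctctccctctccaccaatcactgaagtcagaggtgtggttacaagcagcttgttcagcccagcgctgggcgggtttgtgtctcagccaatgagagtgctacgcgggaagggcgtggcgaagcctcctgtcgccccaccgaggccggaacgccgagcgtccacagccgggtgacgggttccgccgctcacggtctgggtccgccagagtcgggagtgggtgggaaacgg
The Ifitm3 window held an ISRE core match that begins 44 bases before the start and a GAS match that begins 33 bases before it. The Irf9 window held a GAS match 99 bases before the start and no match to these ISRE letters. The Stat2 window held neither. Of the other matched genes, Irf7 and Ifit3 had an ISRE core match on the reverse strand, beginning 69 and 44 bases before the start, and Mx1 had no match. Of 33469 promoters of the same length, 3.92% held the ISRE letters and 8.87% the GAS letters. A match describes letters and is not a measured binding site.

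The levels of the 9 genes fell into a measurable set and a set near the floor. Mx2, Ifitm3, Irf9 and Stat2 passed the filter for testing, a scaled FPKM of 0.5 or more in 2 or more libraries. Mx1, Isg15, Irf7, Ifit2 and Ifit3 did not. Over all 23 libraries the median was 6.85 FPKM for Ifitm3 (range 0.533 to 10.4), 3.35 for Stat2 (2.83 to 4.36), 3.26 for Irf9 (1.92 to 4.87) and 2.92 for Mx2 (0.526 to 3.84). The median was 0.239 FPKM for Irf7, 0.150 for Ifit2, 0.0944 for Mx1, 0.0337 for Isg15 and 0.0110 for Ifit3. Among the DMSO cultures at 24 h, Ifitm3 had the highest level per length (8.82 ± 2.20 FPKM; SD, n = 2) and Irf9 the next (4.62 ± 0.356). Mx2 (3.35 ± 0.461) and Stat2 (3.27 ± 0.234) overlapped between libraries.

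**Figure D1:**
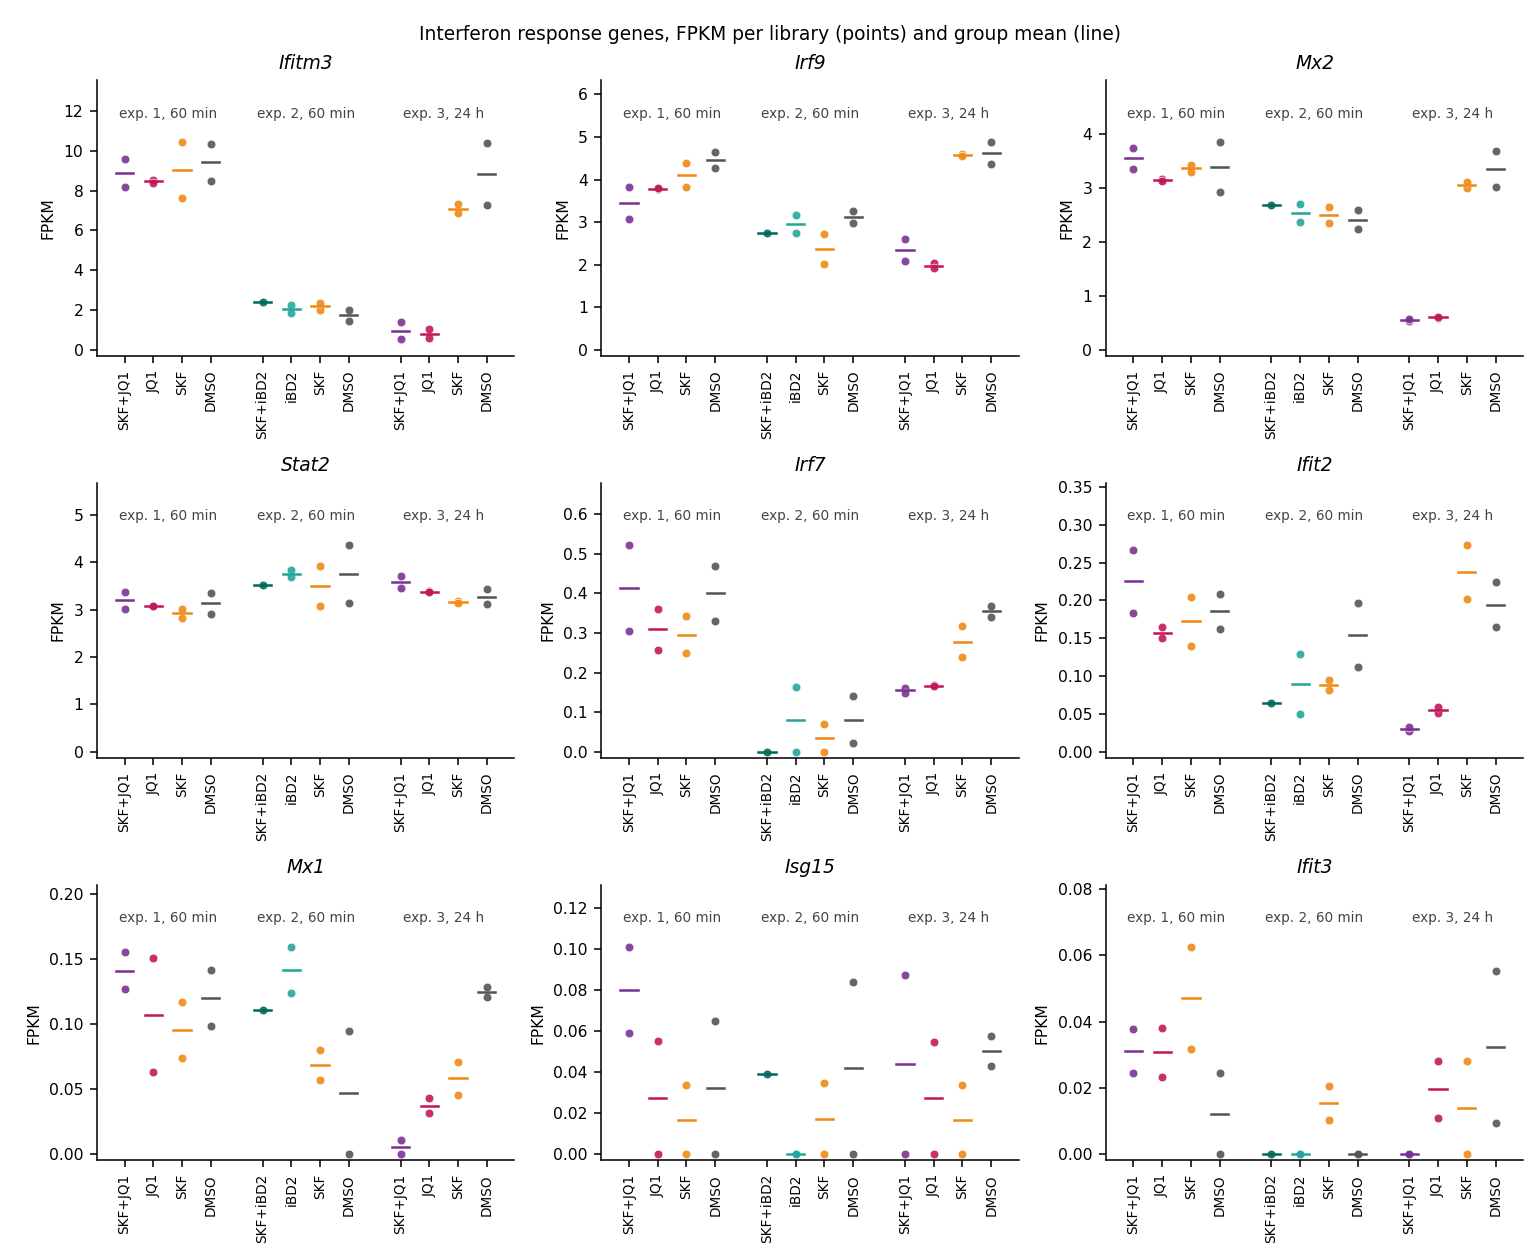
FPKM of the 9 genes in each of the 23 libraries (points) with the group mean (short line); the vertical axis of each panel has its own scale in FPKM, and groups are set by experiment. In experiment 3 the JQ1 and SKF plus JQ1 libraries of Ifitm3, Irf9, Mx2, Mx1, Irf7 and Ifit2 lie below every SKF and DMSO library, and those of Stat2 do not. The share of all genes that separate in this way is not given here. Of all genes tested, 56.4% were called with JQ1 against DMSO at 24 h.

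After 24 h of JQ1 the effectors Ifitm3 and Mx2 and the ISGF3 subunit gene Irf9 were lower, while Stat2, which encodes the partner of Irf9, did not pass the test. The same 3 genes were lower when JQ1 was added to SKF. So 3 of the 4 tested genes were lower in each comparison. Where libraries are said below not to overlap, this describes the values only. The share of all genes that separate in the same way is not given. JQ1 changed a large part of the transcriptome at 24 h: 28.3% of the 14007 genes tested were lower and 56.4% changed in either direction, and with SKF present 28.1% were lower and 56.4% changed. Of the called genes 49.9% and 50.2% were higher; on FPKM as deposited, without scaling between libraries, 34.3% and 38.1% were. The median log2 fold change of the 4 genes was -1.35 for JQ1 against DMSO and -1.25 for SKF plus JQ1 against SKF, against 0.01 in both over all genes tested.

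Ifitm3 (ENSRNOG00000015078; Rnor_6.0, chromosome 1, 213810696 to 213811901, minus strand) encodes a membrane protein that blocks the entry of enveloped viruses. Its level at 24 h was 1.38 and 0.533 FPKM with SKF plus JQ1 and 0.604 and 1.02 FPKM with JQ1, against 7.33 and 6.85 FPKM with SKF and 10.4 and 7.27 FPKM with DMSO. The JQ1 libraries did not overlap those without JQ1. In unscaled FPKM the JQ1 mean was 9.21% of the DMSO mean, and the SKF plus JQ1 mean 13.5% of the SKF mean. The fitted log2 fold changes were -2.76 ± 0.24 (limma, adjusted p = 1.7e-07) and -2.40 ± 0.24 (adjusted p = 7.1e-07). Fold changes are on the log2(FPKM + 0.5) scale, which understates the change of low genes; errors are SE. Ifitm1 and Ifitm2 are close copies of Ifitm3, and reads may be split among them. Both fell with JQ1 too, by 2.03 (SE 0.24) and 2.05 (SE 0.24) on the log2 scale.

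Mx2 (ENSRNOG00000001963; chromosome 11, 38035450 to 38059950, plus strand) encodes a dynamin-like GTPase with antiviral activity in rodents. At 24 h its level was 0.526 and 0.568 FPKM with SKF plus JQ1 and 0.591 and 0.610 FPKM with JQ1, against 3.0 and 3.11 FPKM with SKF and 3.68 and 3.02 FPKM with DMSO. Every library with JQ1 was below every library without it, and the JQ1 values lay within a narrow band. The log2 fold change was -1.74 ± 0.10 for JQ1 against DMSO (limma, adjusted p = 6.4e-10) and -1.72 ± 0.10 for SKF plus JQ1 against SKF (adjusted p = 7e-10). In unscaled FPKM, without the added 0.5, the JQ1 mean was 17.9% of the DMSO mean. The SKF plus JQ1 mean was 17.9% of the SKF mean.

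In FPKM, most of the fall of Mx2 was assigned to 1 of its 3 annotated transcripts. ENSRNOT00000083067 was at 0 in 3 of the 4 libraries with JQ1 at 24 h, with 0.022 FPKM in the other, against a median of 1.89 FPKM (0.064 to 3.07) in the other 19 libraries. ENSRNOT00000002695 had 0.495 to 0.610 FPKM in the 4 libraries with JQ1 at 24 h, against 0.375 to 2.43 FPKM elsewhere, with overlap. The third transcript, ENSRNOT00000087603, was at most 0.037 FPKM with JQ1 at 24 h and at most 0.349 FPKM elsewhere. StringTie assigns reads to transcripts that share most exons, so this split is an estimate, and it was not tested.

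**Figure D2:**
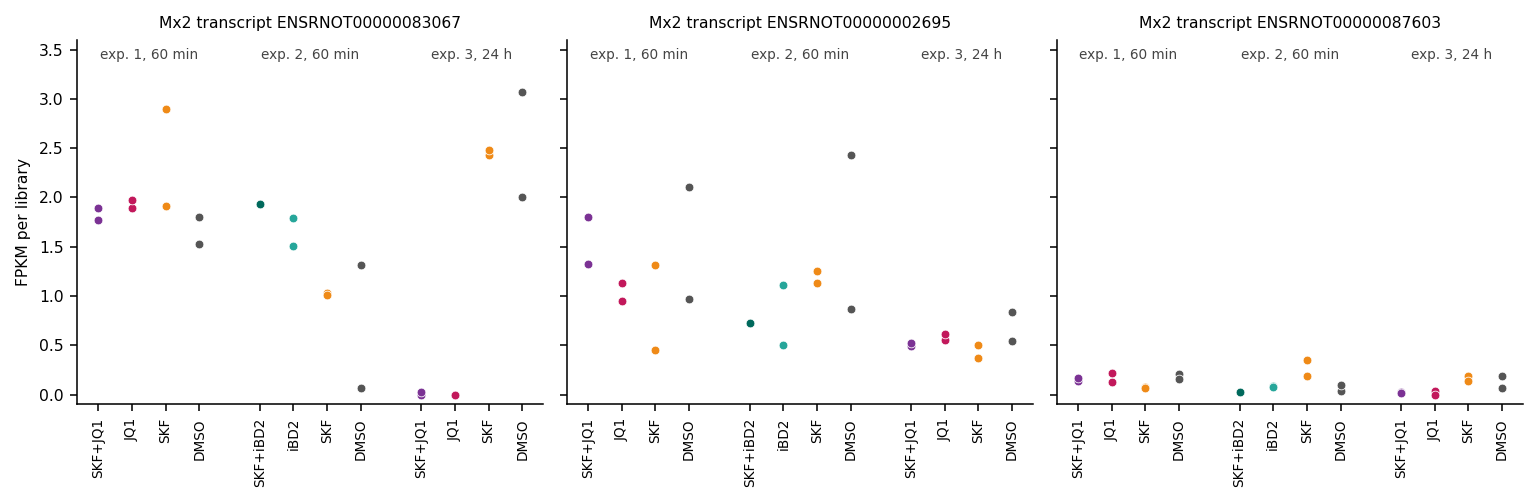
FPKM of the 3 annotated Mx2 transcripts in each library (points), by experiment and group, on a common vertical axis in FPKM. The first transcript was at 0 to 0.022 FPKM in the 4 JQ1 libraries at 24 h, and the second stayed at 0.495 to 0.610 FPKM there.

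Irf9 (ENSRNOG00000019478; chromosome 15, 34282936 to 34288138, plus strand) encodes the DNA-binding subunit of ISGF3. At 24 h its level was 2.60 and 2.09 FPKM with SKF plus JQ1 and 2.03 and 1.92 FPKM with JQ1, against 4.61 and 4.55 FPKM with SKF and 4.87 and 4.37 FPKM with DMSO. The groups with and without JQ1 did not overlap. Its log2 fold change was -0.97 ± 0.11 for JQ1 against DMSO (limma, adjusted p = 1.8e-06) and -0.78 ± 0.11 for SKF plus JQ1 against SKF (adjusted p = 1.8e-05). In FPKM these left 42.8% of the DMSO mean and 51.1% of the SKF mean.

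Stat2 (ENSRNOG00000031081; chromosome 7, 2691369 to 2707741, plus strand) encodes the ISGF3 subunit that carries the activation domain. Its level at 24 h was 3.71 and 3.46 FPKM with SKF plus JQ1 and 3.38 and 3.36 FPKM with JQ1, against 3.18 and 3.13 FPKM with SKF and 3.44 and 3.11 FPKM with DMSO. The JQ1 and DMSO libraries overlapped, and both SKF plus JQ1 libraries were above both SKF libraries. JQ1 against DMSO gave a log2 fold change of 0.13 (95% interval -0.12 to 0.37; limma, adjusted p = 0.37). SKF plus JQ1 against SKF gave 0.23 (-0.02 to 0.47; adjusted p = 0.10), which passed the threshold in experiment 3 alone (0.22, adjusted p = 0.031) and without either DMSO replicate of experiment 2 (0.22 in both, adjusted p from 0.0482).

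**Figure D3:**
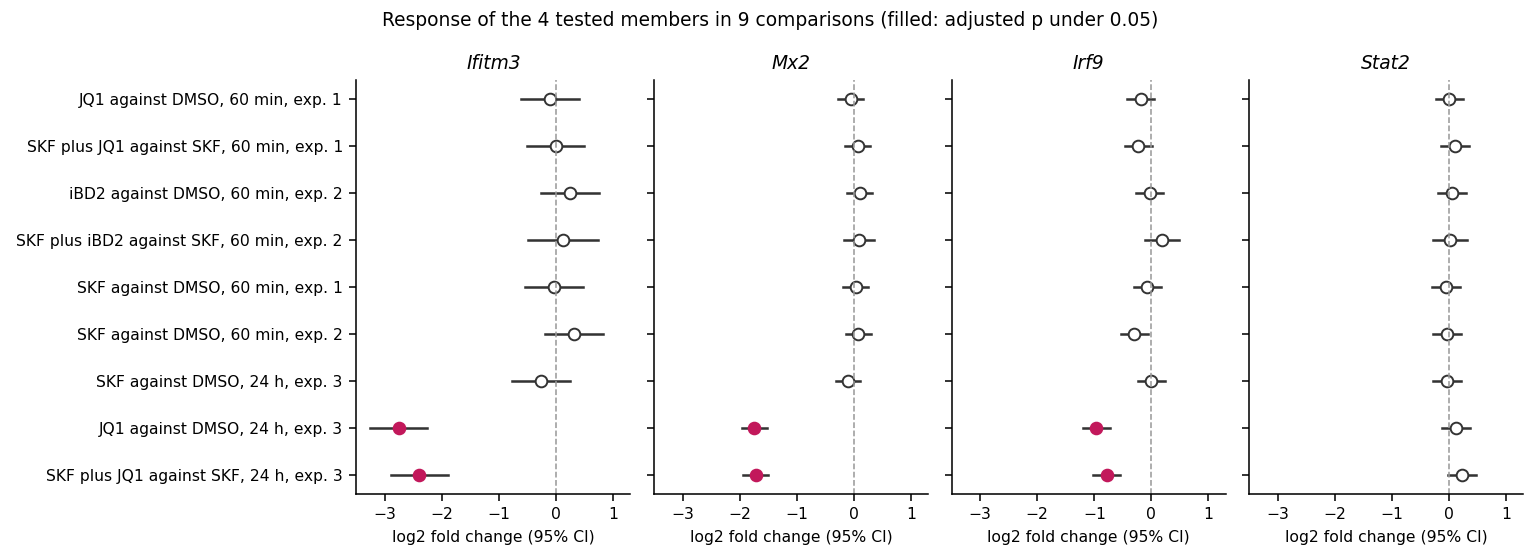
Log2 fold changes of the 4 tested genes on the log2(FPKM + 0.5) scale (points) with 95% confidence intervals (lines) in 9 comparisons; filled points have an adjusted p under 0.05. Filled points occur at 24 h of JQ1, with and without SKF, for Ifitm3, Mx2 and Irf9.

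The 5 genes below the filter were examined on estimated reads, coverage times length over the read length of 101 bases, with limma voom and a lower filter of 10 reads in 2 libraries. This fit was added after the data had been seen, and it tested 16921 genes, of which 27.4% were lower with JQ1 and 26.7% with SKF plus JQ1 against SKF. Ifit2 (ENSRNOG00000036604; chromosome 1, 252894663 to 252900726, plus strand), whose product binds viral RNA, had 0.0270 and 0.0336 FPKM with SKF plus JQ1 at 24 h and 0.0511 and 0.0594 FPKM with JQ1, against 0.274 and 0.201 FPKM with SKF and 0.224 and 0.165 FPKM with DMSO. The libraries with JQ1 were all below those without it. Its log2 fold change was -1.58 ± 0.49 for JQ1 (limma voom, adjusted p = 0.01) and -2.76 ± 0.60 for SKF plus JQ1 against SKF (adjusted p = 0.00057). These values rest on 7.40 to 17.8 estimated reads per library with JQ1 and 63.0 to 82.6 without it.

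Mx1 (ENSRNOG00000001959; chromosome 11, 37891156 to 37914983, minus strand), the neighbour of Mx2 and its nearest relative, had 0.0113 and 0 FPKM with SKF plus JQ1 at 24 h and 0.0317 and 0.0429 FPKM with JQ1, against 0.0707 and 0.0459 FPKM with SKF and 0.129 and 0.121 FPKM with DMSO. SKF plus JQ1 lay below SKF, and JQ1 below DMSO, without overlap, and both SKF libraries also lay below both DMSO libraries. SKF plus JQ1 against SKF gave a log2 fold change of -3.51 ± 1.37 (limma voom, adjusted p = 0.037), JQ1 against DMSO -1.55 ± 0.68 (adjusted p = 0.06) and SKF against DMSO -1.14 ± 0.56 (adjusted p = 0.44). The SKF plus JQ1 libraries held 3.01 and 0 estimated reads, so the size of that fold change depends on the prior count of the fit.

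Irf7 (ENSRNOG00000017414, chromosome 1, 214248837 to 214252456, minus strand) overlaps Phrf1 on the opposite strand. The use of strand in the counting is not stated, so whether reads of the pair were kept apart is not known. Its level at 24 h was 0.161 and 0.149 FPKM with SKF plus JQ1 and 0.169 and 0.166 FPKM with JQ1, against 0.239 and 0.318 FPKM with SKF and 0.369 and 0.340 FPKM with DMSO. Neither comparison passed the test (limma voom, -0.95 ± 0.50, adjusted p = 0.12, and -0.78 ± 0.54, adjusted p = 0.24). The JQ1 libraries were below the others without overlap, a separation whose share over all genes is not given here. Isg15 (ENSRNOG00000021802; chromosome 5, 173624310 to 173626248, minus strand) was at 0 in 10 of the 23 libraries and had at most 12.5 estimated reads. Ifit3 (ENSRNOG00000022839; chromosome 1, 252906234 to 252911382, plus strand), the neighbour of Ifit2, was at 0 in 9 libraries and had at most 10.4. Isg15 passed the lower filter and was not called, with a log2 fold change of -1.84 for JQ1 against DMSO (95% interval -5.12 to 1.45; limma voom, adjusted p = 0.34) and 1.08 for SKF plus JQ1 against SKF (-2.87 to 5.04; adjusted p = 0.66). Ifit3 did not pass the lower filter.

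At 60 min no tested member was called in any comparison. With JQ1 in experiment 1 the log2 fold changes ran from -0.18 to 0.01 (limma, adjusted p 0.54 to 0.99), where 4.33% of all genes were called and 2.52% were lower, and for SKF plus JQ1 against SKF from -0.23 to 0.11 (adjusted p 0.32 to 0.99), where 6.49% were called and 3.86% were lower. The 95% intervals of JQ1 against DMSO lay within -0.61 and 0.39. Ifitm3 had 8.18 and 9.57 FPKM with SKF plus JQ1 and 8.54 and 8.40 FPKM with JQ1, against 10.4 and 7.62 FPKM with SKF and 10.4 and 8.46 FPKM with DMSO. Mx2 had 3.36 and 3.75 FPKM with SKF plus JQ1 and 3.16 and 3.14 FPKM with JQ1, against 3.43 and 3.30 FPKM with SKF and 3.84 and 2.92 FPKM with DMSO. These groups overlapped. Irf9 had 3.08 and 3.82 FPKM with SKF plus JQ1 and 3.77 and 3.79 FPKM with JQ1, against 4.40 and 3.83 FPKM with SKF and 4.64 and 4.26 FPKM with DMSO. Irf9 did not pass the test (limma, -0.18, adjusted p = 0.54, and -0.23, adjusted p = 0.32). Its JQ1 and SKF plus JQ1 libraries were below the SKF and DMSO libraries, a separation whose share over all genes is not given here. Stat2 was at 2.83 to 3.37 FPKM in all 8 libraries.

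With iBD2 in experiment 2, 0.186% of all genes were called, and the 4 tested members had log2 fold changes from -0.03 to 0.24 (limma, adjusted p 0.95 to 0.99; 95% intervals within -0.27 and 0.75). The levels of Ifitm3 in this experiment were low throughout, with 2.41 FPKM in the SKF plus iBD2 library and 2.26 and 1.85 FPKM with iBD2, against 2.02 and 2.34 FPKM with SKF and 1.43 and 2.02 FPKM with DMSO. Mx2 had 2.69 FPKM in the SKF plus iBD2 library and 2.70 and 2.37 FPKM with iBD2, against 2.64 and 2.34 FPKM with SKF and 2.23 and 2.59 FPKM with DMSO. Irf9 had 2.75 FPKM in the SKF plus iBD2 library and 3.16 and 2.74 FPKM with iBD2, against 2.01 and 2.73 FPKM with SKF and 2.98 and 3.26 FPKM with DMSO. The iBD2 libraries overlapped their DMSO libraries for all 3. The values of SKF plus iBD2 against SKF (0.01 to 0.18, limma, adjusted p at least 0.9999, background 0.0214%) rest on a single library, whose variation is taken to equal that of other groups.

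The effects of JQ1 and iBD2 at the matched time of 60 min were compared in the same model, each against its own DMSO group, with unknown doses. The difference, JQ1 minus iBD2, was -0.35 for Ifitm3 (95% interval -1.06 to 0.36), -0.16 for Mx2 (-0.46 to 0.15), -0.15 for Irf9 (-0.49 to 0.18) and -0.05 for Stat2 (-0.39 to 0.29). None passed the test (limma, adjusted p 0.86 to 0.97, background 0.921% in either direction and 0.4% lower). The intervals do not show that the inhibitors act alike. Experiment 2 also differed from experiment 1 before any drug: its DMSO cultures had 18.3% of the Ifitm3 level, 71.2% of the Mx2 level, 70.1% of the Irf9 level and 120% of the Stat2 level of the experiment 1 DMSO cultures. Irf7 had 0 to 0.163 FPKM in the 7 libraries of experiment 2, 3 of them at 0, against 0.249 to 0.522 FPKM in the 8 libraries of experiment 1, without overlap. Ifit2 had 0.0499 to 0.197 FPKM in experiment 2, against 0.140 to 0.267 FPKM in experiment 1, with overlap. These levels across experiments were not tested.

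The effect of JQ1 at 24 h was set against that at 60 min, each relative to DMSO. The difference was -2.65 ± 0.33 for Ifitm3 (limma, adjusted p = 3e-05), -1.69 ± 0.14 for Mx2 (adjusted p = 2.7e-07), -0.78 ± 0.16 for Irf9 (adjusted p = 0.0011) and 0.12 ± 0.16 for Stat2 (adjusted p = 0.60). In the presence of SKF it was -2.39 ± 0.33 for Ifitm3 (adjusted p = 7.2e-05), -1.79 ± 0.14 for Mx2 (adjusted p = 1.5e-07) and -0.55 ± 0.16 for Irf9 (adjusted p = 0.012). The Irf9 difference with SKF lost its call without SKF plus JQ1 replicate 6 of experiment 1 (-0.41, adjusted p = 0.073) or without SKF plus JQ1 replicate 6 of experiment 3 (-0.44, adjusted p = 0.059). Of all genes, 36.3% had a difference in either direction and 19.2% a lower effect at 24 h than at 60 min, against 37.4% and 19.4% with SKF. Of these calls 47.1% and 48.0% were higher, and 31.8% and 34.0% on FPKM as deposited. Time and experiment cannot be told apart here, since each time of JQ1 was run in an experiment of its own.

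None of the 4 tested genes was called with SKF alone. SKF against DMSO gave log2 fold changes from -0.08 to 0.03 at 60 min in experiment 1, from -0.30 to 0.31 at 60 min in experiment 2 and from -0.27 to -0.00 at 24 h, where 1.71%, 2.37% and 1.48% of all genes were called. The smallest adjusted p was that of Irf9 in experiment 2 (limma, -0.30 ± 0.11, adjusted p = 0.24). No difference in the JQ1 response with SKF was detected at 24 h: the SKF by JQ1 difference was 0.36 for Ifitm3 (95% interval -0.35 to 1.07), 0.02 for Mx2 (-0.28 to 0.33), 0.19 for Irf9 (-0.15 to 0.52) and 0.10 for Stat2 (-0.24 to 0.44), and no member passed (limma, adjusted p at least 0.97, background 0.0428%). At 60 min none passed either, with 0% of all genes called for SKF by JQ1 (448 genes at an unadjusted p under 0.05) and 0.0143% for SKF by iBD2. The SKF effect at 24 h minus that at 60 min gave no call among the members, with 1.22% of all genes called.

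At 24 h microglia markers were mostly lower with JQ1, as Ifitm3, Mx2 and Irf9 were. The summed FPKM of 16 microglia markers was 15.7 and 16.9 with SKF plus JQ1 and 28.5 to 35.5 with JQ1. It was 68.0 to 86.8 with SKF and 138 to 166 with DMSO. Of the 16 markers, 15 were lower with JQ1 (median log2 fold change -2.16), beside 28.3% of all genes. With SKF plus JQ1 against SKF, 15 were lower and 1 higher (median -1.93), beside 28.1% of all genes lower. With SKF against DMSO, 12 were lower (median -0.96), beside 119 of all 14007 genes. None was called with JQ1 at 60 min, where 4.33% of all genes were called. Itgam was at 0 in both JQ1 libraries, and Aif1 and Ptprc were at 0 in both SKF plus JQ1 libraries. Relative to DMSO, the microglia sum was at 10.7% with SKF plus JQ1, 21.1% with JQ1 and 51.0% with SKF. Mx2 was at 16.3%, 17.9% and 91.3% in those 3 groups, Ifitm3 at 10.8%, 9.21% and 80.4%, and Irf9 at 50.7%, 42.8% and 99.2%. Mx2, Ifitm3 and Irf9 were not called with SKF against DMSO, in groups of 2 libraries. Without single libraries the log2 fold change of Ifitm3 in that comparison ran from -0.48 to -0.06. The astrocyte sum was at 92.7%, 82.0% and 83.0% and the neuron sum at 86.2%, 89.9% and 100% in the same groups. The fibroblast sum over 10 genes was at 59.1%, 71.4% and 91.6%, with the libraries with JQ1 below all those without it. The endothelial and mural sum over 11 genes, at most 5.20 FPKM, was at 82.4%, 57.9% and 53.4%, and the oligodendrocyte lineage sum over 12 genes at 119%, 106% and 91.3%. The part of the cell markers in the fall of the members was not tested.

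**Figure D4:**
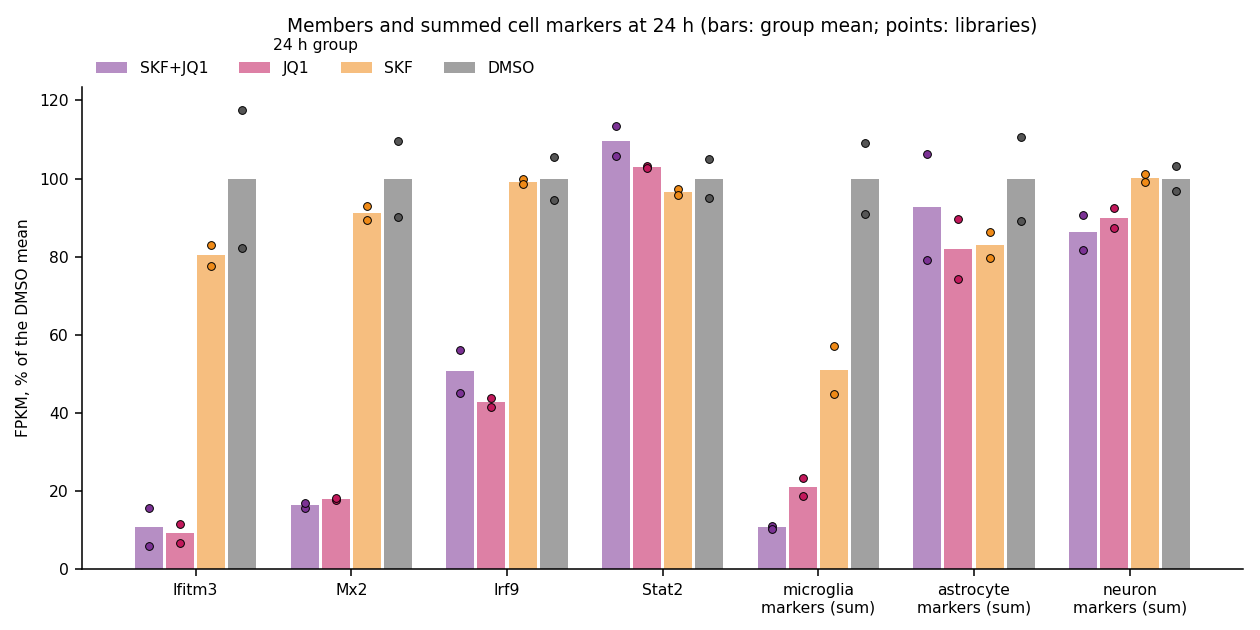
FPKM at 24 h as a percent of the DMSO mean for the 4 tested genes and for the summed microglia, astrocyte and neuron markers; bars are group means and points are libraries. With SKF the microglia sum was at 51.0%, Mx2 at 91.3% and Ifitm3 at 80.4%. With JQ1 they were at 21.1%, 17.9% and 9.21%. Their relation was not tested.

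Around the members, other genes of the interferon pathway were mostly lower after 24 h of JQ1. Of 134 listed genes, 127 were in the files and 74 were tested. With JQ1 against DMSO 47 were lower and 9 higher (median -0.50), and with SKF plus JQ1 against SKF 37 were lower and 10 higher (median -0.34), beside the 28.3% and 28.1% of all genes that were lower. With JQ1 at 60 min none was lower and 1 was higher, Socs1, which encodes an inhibitor of JAK kinases (0.56 ± 0.12, limma, adjusted p = 0.0075). Of all genes, 4.33% were called with JQ1 at 60 min and 2.52% were lower, and 254 of 14007 were higher. Socs1 also rose with SKF plus JQ1 against SKF at 60 min (0.84 ± 0.12, limma, adjusted p = 0.00013), as did the viral tether gene Bst2 (0.85 ± 0.22, adjusted p = 0.024). In that comparison 6.49% of all genes were called, and 369 of 14007 were higher. Counts of 1 and 2 among 74 genes are thus no result about the lists. The Socs1 call with JQ1 at 60 min was lost without DMSO replicate 5, JQ1 replicate 5 or JQ1 replicate 6 of experiment 1, each of which left 0 genes of the lists called. With SKF plus JQ1 at 60 min, 1 of the 2 calls was lost without SKF replicate 6 or either SKF plus JQ1 replicate.

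No interferon gene could be tested. All 12 ligand genes in the files were under the filter in all libraries, 2 of them at 0 throughout, and the highest value was 0.123 FPKM, of Ifne. Of 8 tested receptor and kinase genes 4 fell and 1 rose with JQ1 at 24 h, a share close to the 56.4% of all genes that changed, so the count says little about this list. Il10rb, a chain shared by the receptors for type III interferons and interleukin 10, fell by 1.31 (SE 0.15), and Ifnar2 fell by 0.55 (SE 0.09) to 4.17 and 4.64 FPKM, against 7.09 and 7.18 FPKM with DMSO. Ifnar1, the other chain of the type I receptor, had 36.0 FPKM with JQ1 and 36.7 FPKM with DMSO and was not called (limma, 0.07, adjusted p = 0.28); the fitted value, on FPKM scaled between libraries, has the opposite sign to the difference of these unscaled means. The interferon gamma receptor gene Ifngr1 fell by 0.37 (SE 0.08), and Jak1 rose by 0.24 (SE 0.05). With SKF plus JQ1 against SKF, 3 fell and 1 rose, beside 56.4% of all genes changed.

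Of 7 other STAT and IRF genes tested, 3 fell and 2 rose with JQ1 at 24 h, beside 28.3% of all genes lower and 56.4% changed, which in so short a list is no result about the list. The myeloid factor gene Irf8 fell by 0.71 (SE 0.13) and Irf5 by 0.72 (SE 0.15). Stat3 rose by 0.20 (SE 0.06). With SKF plus JQ1 against SKF, Irf5 and Irf8 fell by 0.67 (SE 0.15) and 0.35 (SE 0.13). Irf8 was also lower with SKF against DMSO at 24 h (limma, -0.74 ± 0.13, adjusted p = 0.0042), which Irf9 was not.

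Among nucleic acid sensors and their adaptors, 5 of 8 fell and none rose with JQ1 at 24 h, beside 28.3% of all genes lower. The endosomal receptor genes Tlr7, Tlr3 and Tlr9 fell by 1.40 (SE 0.10), 1.25 (SE 0.13) and 1.0 (SE 0.14), and the cytosolic RNA sensor gene Ddx58 by 0.67 (SE 0.12). Tlr7 and Tlr9 were also lower with SKF at 24 h, at -0.65 ± 0.10 (limma, adjusted p = 0.0022) and -0.69 ± 0.14 (adjusted p = 0.011). The 4 pathway genes called with SKF at 24 h, Irf8, Tlr7, Tlr9 and Ptpn6, became 1 without DMSO replicate 5 and 0 without SKF replicate 6. Of all genes, 1.48% were called with SKF at 24 h. Among 7 negative regulators 4 rose and 2 fell with JQ1 at 24 h, beside 3936 higher and 3959 lower of all 14007 genes. In so short a list this is no result about the list. Pias1 rose by 0.65 ± 0.07, Irf2bp1 by 0.46 ± 0.04 and the phosphatase gene Ptpn2 by 0.46 ± 0.08. Ptpn6, a phosphatase of blood-lineage cells, fell by 1.14 (SE 0.15).

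Of 44 other interferon-stimulated genes tested, 33 fell and 2 rose with JQ1 at 24 h (median -0.64), beside 28.3% of all genes lower. With SKF plus JQ1 against SKF, 26 fell and 3 rose (median -0.42), beside 28.1% of all genes lower. The guanylate-binding protein genes Gbp2 and Gbp5 fell by 1.48 (SE 0.11) and 1.20 (SE 0.10), the nucleotide kinase gene Cmpk2 by 1.0 (SE 0.09) and Shisa5 by 1.08 (SE 0.10). Gbp2 was at 1.18 to 1.29 FPKM with SKF plus JQ1 and 0.978 to 1.31 FPKM with JQ1, against 3.66 to 3.85 FPKM with SKF and 4.05 to 4.56 FPKM with DMSO. Of the 44 genes, none was called with SKF at 24 h or with iBD2 at 60 min, where 1.48% and 0.186% of all genes were called.

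**Figure D5:**
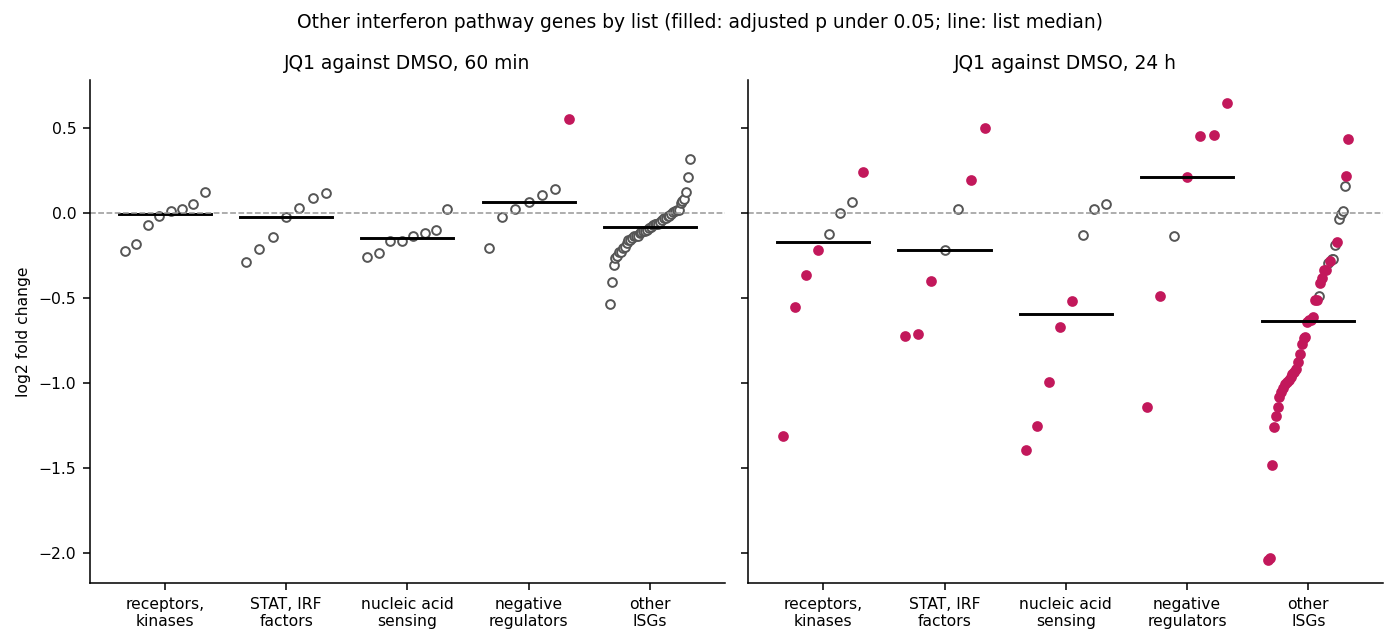
Log2 fold changes of 74 other interferon pathway genes on the log2(FPKM + 0.5) scale, by list, for JQ1 against DMSO at 60 min (left) and 24 h (right); filled points have an adjusted p under 0.05 and lines are list medians. At 24 h, 47 genes were lower and 9 higher, and at 60 min none was lower and 1 higher. Of all 14007 genes tested, 28.3% were lower at 24 h and 2.52% at 60 min, and 3936 and 254 were higher.

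The genes nearest in pattern to the median profile of the 4 tested members, and to each member, were found over the 9 treated groups. Each group was taken as its mean log2 value minus that of its DMSO group. The median profile includes Stat2. With JQ1 at 24 h it was at -1.35, between Mx2 and Irf9, so it is the profile of no single member. Nearest to the median profile was Igdcc4, a cell-surface protein gene of the immunoglobulin superfamily (mean absolute log2 difference 0.0293), and then Fblim1 (0.0448), LOC103693564 (0.0533), Cpne2 (0.0543) and Tagln3 (0.0553). Nearest to single members were the chemokine gene Cxcl14 for Mx2 (0.0607), Sla for Ifitm3 (0.162), the sulfotransferase gene Chst15 for Irf9 (0.0682) and Chd4 for Stat2 (0.0163). Cxcl14 was -1.90 with SKF plus JQ1 and -1.83 with JQ1 relative to DMSO at 24 h. Groups of 1 experiment share a DMSO group, so the 9 differences are not independent.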

How the data were processed

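Per the labels' protocols, RNA was purified on columns, depleted of ribosomal RNA and sequenced as stranded libraries. The submitters' processing notes name Trim Galore, FastQC, STAR, StringTie and DESeq2, without versions, and the build Rnor_6.0. Each deposited table lists 41078 transcripts with FPKM and coverage (signal per base) as the authors computed them. Use of strand in counting is not stated. Depth was 4.36 to 14.9 aligned gigabases.

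FPKM were summed by gene, divided by a median-ratio size factor (0.942 to 1.06) and taken as log2(FPKM + 0.5). Genes needed an FPKM of 0.5 in 2 libraries and a transcript of 200 nucleotides (14007 genes). limma 3.58.1 (R 4.3.3; trend, robust) fitted 12 group means to 23 libraries with 11 residual degrees of freedom. Tests were two-sided, with Benjamini-Hochberg adjustment over all genes tested and a threshold of 0.05, for 16 comparisons. The fit was tested on simulated data. SKF plus iBD2 replicate 2 is not analysed here. Figures used matplotlib 3.10.9.

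The members and lists were chosen with earlier results of these data known. The text names all members, up to 4 genes per list and comparison by smallest p, Ifnar1, Ifitm1 and Ifitm2 as partners or copies of named genes, Fos and Hexim1 as checks, and genes nearest in pattern. Ifnar1, Ifitm1, Ifitm2 and the 3 Mx2 transcripts were picked after their values were seen. Alternatives were unscaled FPKM, a pseudocount of 0.1 or 1, no low-value filter, a replicate block, separate fits per experiment, limma voom on estimated reads and each library left out; voom with a lower filter was added after seeing the data. Some listed genes are counted in their lists but not reported here by name.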

Additional observations from a re-analysis of the deposited data

Results flagged for a closer look

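The response to JQ1 differed between 24 h (experiment 3) and 60 min (experiment 1) for 3 of the 4 tested genes, by a test of the difference itself in limma. Relative to DMSO, the log2 difference of the effects was -2.65 for Ifitm3 (95% interval -3.36 to -1.94), -1.69 for Mx2 (-1.99 to -1.38) and -0.78 for Irf9 (-1.12 to -0.45). In the presence of SKF it was -2.39 for Ifitm3 (-3.10 to -1.68), -1.79 for Mx2 (-2.09 to -1.48) and -0.55 for Irf9 (-0.89 to -0.22). Of all genes tested, 36.3% and 37.4% had such a difference in either direction. Time cannot be told apart from experiment.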

How the results depend on the processing

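The calls of Ifitm3, Mx2 and Irf9 at 24 h held in all 8 alternatives and in all 23 fits with a library left out. Over the 8 alternatives the log2 fold change with JQ1 ran from -3.26 to -2.38 for Ifitm3, from -2.29 to -1.39 for Mx2 and from -1.12 to -0.85 for Irf9, and without a library from -3.00 to -2.52, from -1.83 to -1.65 and from -1.01 to -0.92. Voom with the lower filter tested 8 of the 9 members. For SKF plus JQ1 against SKF at 24 h it called 5 members, against 3 in the main fit. For the difference of this effect between 24 h and 60 min it also called 5, against 3. The 2 added genes passed no filter in the main test. Of its 16921 genes, voom with the lower filter called 8727 and 6099 in these comparisons. The replicate number as a block left 3 members called in each of the 4 comparisons that had calls and 0 in the others. The deviations of same-numbered libraries correlated from -0.27 to 0.37, over 0.1 in 5 of 15 pairs of groups, so the numbers were not taken to pair the samples. In experiment 3, however, replicate 5 was above replicate 6 in the astrocyte and microglia sums and in Irf9, and below it in the neuron sum, in all 4 groups. Of 1960 single-gene values under alternatives, 1955 kept their side of the threshold, and no called value changed sign, while 51 uncalled values did; the others are given beside Irf9 and Stat2, and the cause was not tested. Counts over all genes moved by more than 1.5 times for JQ1 at 60 min (607; 380 in its experiment alone), SKF plus JQ1 against SKF at 60 min (909; 605), SKF at 24 h (208; 88) and iBD2 (26; 4 with voom), and without single libraries to 314 to 383, 445 to 597, 62 to 79 and 4 to 15 where they moved. They also moved for SKF at 60 min in experiment 1 (240; 156 alone) and experiment 2 (332; 204 without SKF replicate 2), JQ1 minus iBD2 (129; 62 to 82 without a library), SKF at 24 h minus 60 min (171; 107 without SKF replicate 6 of experiment 3), SKF by JQ1 at 24 h (6; 0 to 27) and at 60 min (0; 1 to 6) and SKF by iBD2 (2; 1 to 146). SKF plus iBD2 against SKF had 3 calls, against 202 without filter and 5 to 10 in other settings where it moved. Depth limits the 5 genes with a median under 0.5 FPKM, and FPKM are estimates rather than counts.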
